A study of Mus musculus with 7 samples.

Results

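The clustered protocadherins are 57 protein-coding genes of mouse chromosome 18, of 21938 protein-coding genes examined. Members were chosen by symbol alone, as every GENCODE protein-coding gene of that chromosome named Pcdha, Pcdhb, or Pcdhg. They comprise 14 Pcdha, 22 Pcdhb, and 21 Pcdhg genes, all on the plus strand within 911.7 kb of GRCm38 (mm10). Pcdha spans chr18:36930184-37187661, Pcdhb spans chr18:37264938-37524479, and Pcdhg spans chr18:37661793-37841873. The annotation gives the symbol Pcdha11 to 2 genes, which are told apart below by their identifiers.

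Clustered protocadherins are cell adhesion proteins of the cadherin family that bind the same isoform on a neighboring cell, and in neurons their combinations mark single cells. Each variable exon has its own promoter. In Pcdha and Pcdhg the chosen variable exon is spliced to shared constant exons, while a Pcdhb gene is a single exon. The alternate promoters are chosen stochastically in neurons with the help of CTCF, cohesin, and distant enhancers, and most carry a conserved sequence element with a CGCT core. The C-type genes (Pcdhac1, Pcdhac2, Pcdhgc3, Pcdhgc4, and Pcdhgc5) are known to be used more constitutively.

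ATAC-Seq, in which the Tn5 transposase tags open chromatin, was performed on islet cells sorted by FACS, and the peak lists of 2 alpha, 3 beta, and 2 delta cell libraries were compared. Alpha cells secrete glucagon, beta cells insulin, and delta cells somatostatin. The mice were triple transgenic and were pooled by sex. In all of them mIns1-H2b-mCherry, a nuclear reporter under an insulin promoter, marked beta cells, and Rosa-LSL-YFP, a reporter that Cre switches on, marked the cells in which Gcg-Cre or Sst-Cre had acted. The labels describe the mice as healthy and give neither their age nor the cross from which each beta library came. A Cre reporter marks any cell in which Cre was ever active.

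A TSS peak is here the strongest peak that touches the 1 kb on either side of any annotated transcript start of a gene, and a gene with one is called open. The 7 lists held 75860 to 518503 distinct peaks, and a peak list does not give read depth. Beta 1 stood apart, since 4.996% of its peaks had a -log10 q of 2 or more, here called strict peaks, against 29.8% to 54.95% in the other 6. File names of all 3 beta lists name an alpha or a delta sample where the labels say beta, and the labels were used, so that every beta value rests on them. Counting strict peaks, the 7 alpha markers were all open in both alpha libraries, 2 of them in each beta library, and 5.5 ± 0.707 (SD, n = 2) in delta. The 8 beta markers numbered 4 in each alpha library, 4.67 ± 1.15 (SD, n = 3) in beta, and 6.0 ± 1.41 (SD, n = 2) in delta, so they did not single out the beta libraries. The delta markers Hhex, Ghsr, and Rbp4 had a strict TSS peak in every alpha and delta library and in no beta library, while Sst had one only in beta 1. Markers of acinar, immune, and glial cells had one in no library, those of duct cells in 1 gene per delta library, and those of endothelial cells in 1 gene of delta 1.

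Clustered protocadherin promoters were open less often than protein-coding promoters in general, in every library. Of the 57 genes, 22 (38.6%) and 18 (31.6%) had a TSS peak in alpha 1 and 2, against a background of 66.4% and 67.5% of all protein-coding genes. In beta 1, 2, and 3 there were 35 (61.4%), 9 (15.8%), and 22 (38.6%), against 78.4%, 54.6%, and 62.9%. Delta 1 had 33 (57.9%) and delta 2 had 19 (33.3%), against 68.4% and 61.3%. The member share minus the background averaged -26.0 percentage points over the 7 libraries, and it was lower in 7 of 7 (exact two-sided sign-flip permutation test, p = 0.0156, the smallest that 7 libraries allow). This test asks whether the difference of a fixed gene set holds across libraries. It is not a test over genes, and other sets of 57 genes were not drawn.

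**Figure D1:**
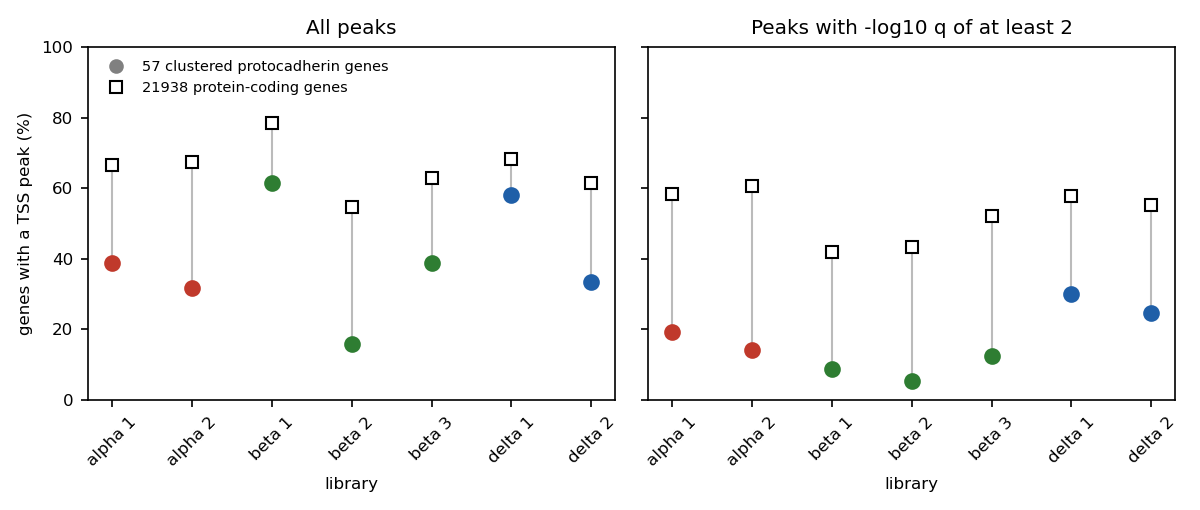
Percent of genes with a TSS peak (vertical axis) in each library (horizontal axis), for the 57 clustered protocadherin genes (filled circles, colored by cell type) and for 21938 protein-coding genes (open squares), with all peaks on the left and strict peaks (-log10 q of 2 or more) on the right. Every circle lies below the square of its library, and on the right the delta circles (29.8% and 24.6%) lie above those of all other libraries.

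By gene group, Pcdhb was open less often than the background in 7 of 7 libraries, and Pcdha and Pcdhg in 6 of 7 each. The exceptions were Pcdha in beta 1 (78.6%, against 78.4%) and Pcdhg in delta 1 (76.2%, against 68.4%). The difference from the background averaged -42.3 percentage points in Pcdhb (exact sign-flip permutation p = 0.0156), -15.6 in Pcdha (exact p = 0.0312), and -15.98 in Pcdhg (exact p = 0.0312), with an adjusted exact p of 0.0312 for each over the 3 groups. The other 456 protein-coding genes of chromosome 18 were open in 305 to 398 cases per library, and the member share minus theirs averaged -37.9 percentage points.

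Most members were open in few libraries. The median member had a TSS peak in 2 of 7 libraries, against 6 for all protein-coding genes, and 38 members (66.7%) were open in 3 or fewer, against 36% of all genes. By contrast, 6 members (10.5%) were open in none, close to the background of 11.2%. These were Pcdha1, Pcdhb15, Pcdhb18, Pcdhb20, Pcdhb22, and Pcdhgc5. Only 4 members (7.02%) were open in all 7 libraries, against 46.6% of all genes, and they were Pcdhac2, Pcdhb1, Pcdhgc3, and Pcdhgc4. Counting strict peaks, 35 members (61.4%) were open in no library, against 32.7% of all genes, and 2 members, Pcdhb1 and Pcdhgc3, in all 7, against 34.3%.

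**Figure D2:**
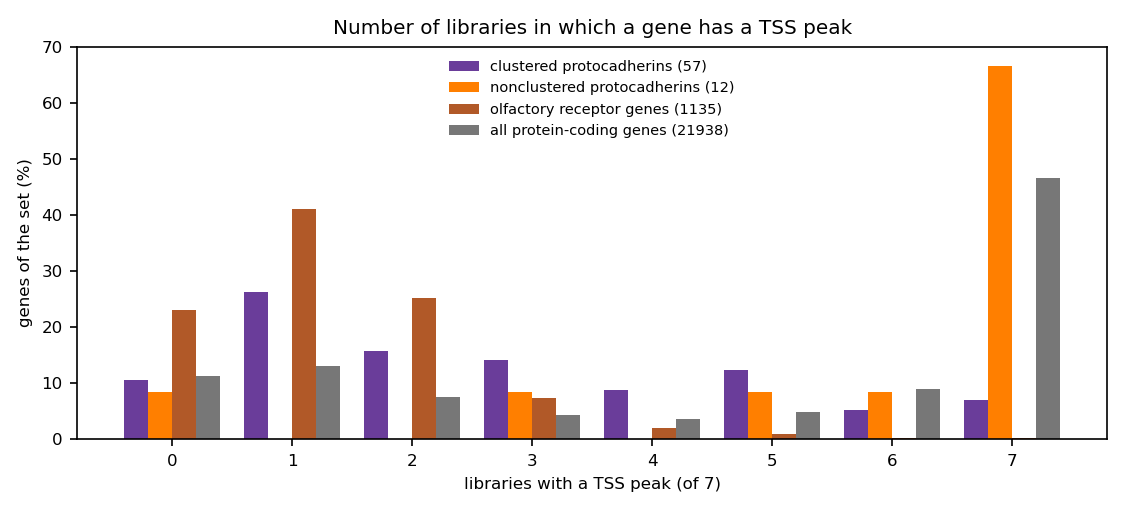
Share of each gene set in percent (bars, vertical axis) by the number of libraries, of 7, in which a gene has a TSS peak (horizontal axis). Clustered protocadherins are spread over 0 to 7 libraries, while 8 of 12 nonclustered protocadherins are open in all 7 and most olfactory receptor genes in 2 or fewer.

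The nonclustered protocadherins, related adhesion genes that each have their own promoter elsewhere in the genome, were mostly open. Of 12 such genes, 8 had a TSS peak in all 7 libraries and Pcdh12 in none. Of 18 genes for CTCF, cohesin, DNA methylation, and silencing factors, 17 were open in every library, as were 12 of 14 genes for binding partners and for proteins that process protocadherins. The 1135 olfactory receptor genes, another clustered family, were open in 1 library at the median, and 3 of them were open in all 7. In beta 1, however, 710 of them (62.6%) were open, about the share of the members there (61.4%). Elsewhere their share ran from 4.93% in delta 2 to 20.97% in delta 1. An open call from all peaks of beta 1 therefore says little on its own.

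**Figure D3:**
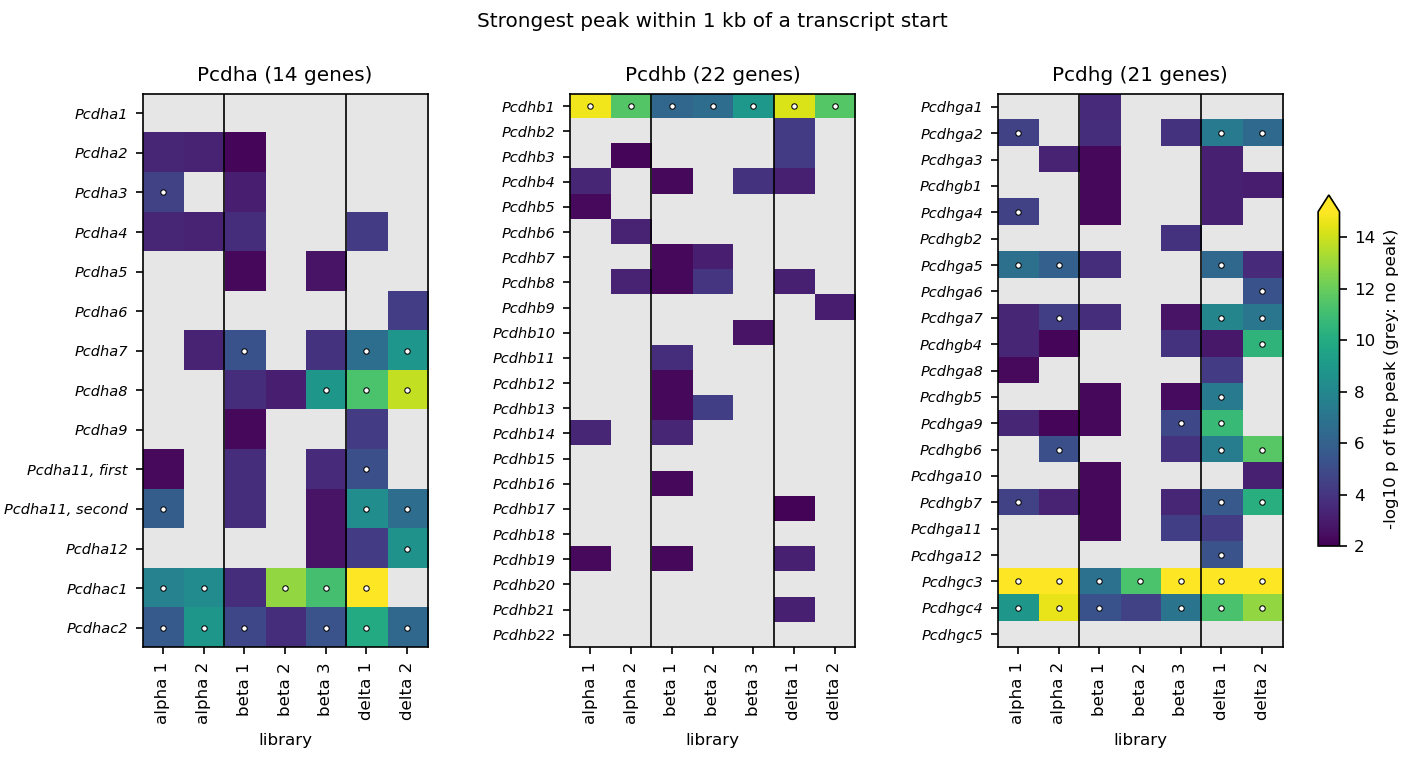
The -log10 p of the strongest peak within 1 kb of a transcript start (color, values above 15 drawn as 15, grey where there is no peak) for each gene (rows, in genomic order) and library (columns), with white dots at strict peaks (-log10 q of 2 or more). Pcdhb1, Pcdhgc3, and Pcdhgc4 carry a peak in every column, most cells of the other Pcdhb rows are grey, and the dots of the alternate Pcdha and Pcdhg rows gather in the delta columns; Pcdha11, first and second, are ENSMUSG00000007440.10 and ENSMUSG00000102206.5.

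Pcdhb1 and the C-type genes other than Pcdhgc5 carried the strongest peaks. By median rank score, which places the TSS peak among the 75860 peaks of lowest p of its list (100 for the strongest, 0 where none), the first 5 members were Pcdhgc3 (96.2), Pcdhb1 (80.2), Pcdhgc4 (74.7), Pcdhac1 (68.9), and Pcdhac2 (66.0). The median of this score was 0 over the members and 60.4 over all genes. Since -log10 p grows with depth, its values are compared below within a library rather than between libraries.

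Pcdhgc3, the first of the Pcdhg C-type genes, starts at chr18:37806364. Its TSS peak had a -log10 p of 30.7 and 45.7 in alpha 1 and 2, of 6.88, 11.3, and 41.0 in beta 1, 2, and 3, and of 46.9 and 34.5 in delta 1 and 2. In each library but beta 2 this was the strongest peak of the family, and it lay between the percentiles 92.2 and 98.4 of its own list. In beta 2 the peak of Pcdhac1 was stronger. The summit lay within 32 bp of a Pcdhgc3 start in all 7 libraries.

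Pcdhgc4, the next C-type gene, starts at chr18:37815079 and had a -log10 p of 8.89 and 14.6 in alpha, of 5.26, 4.54, and 7.02 in beta, and of 11.3 and 12.9 in delta. Its rank score was 72.5 and 82.3 in alpha, 70.8, 57.4, and 75.4 in beta, and 74.7 and 82.7 in delta, so the cell types overlapped (exact permutation p = 0.371). Pcdhgc5, the last C-type gene, had no TSS peak in any library, and at a window of 3 kb a peak 2777 bp past one of its starts came within reach. That peak (chr18:37822431-37822819, in an exon of Pcdhgc5) was present in all 7 libraries, with a -log10 p of 8.27 and 16.4 in alpha, of 6.88, 11.4, and 11.1 in beta, and of 11.3 and 13.2 in delta. It was a strict peak in each of them.

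Pcdhac1 and Pcdhac2 are the C-type genes of the Pcdha group. At Pcdhac1 (chr18:37090013) the -log10 p was 7.78 and 8.26 in alpha, 3.70, 12.9, and 11.2 in beta, and 20.8 in delta 1, and delta 2 had no peak. By rank score beta 2 (92.5) and delta 1 (87.3) were the highest, and delta 2, at 0, the lowest. Pcdhac2 (chr18:37143503) gave 5.68 and 8.88 in alpha, 4.80, 3.69, and 5.30 in beta, and 9.96 and 6.36 in delta, and its summits lay between 44 and 856 bp past the start. The rank score of Pcdhac2 was 52.4 and 70.9 in alpha, 66.0, 9.1, and 66.5 in beta, and 71.4 and 61.0 in delta, and the cell types overlapped (exact permutation p = 0.848).

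Pcdhb1, the first Pcdhb gene (chr18:37264938), had a -log10 p of 14.7 and 11.5 in alpha, of 6.28, 6.67, and 8.94 in beta, and of 14.3 and 11.6 in delta. It was the only Pcdhb gene with a strict TSS peak in any library, and it had one in all 7. Of the 22 Pcdhb genes, 14 were open in 1 library or none and 19 in 3 or fewer. No other Pcdhb gene was open in more than 4 libraries, which Pcdhb4 and Pcdhb8 reached.

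Most member peaks were weak. Of the 158 TSS peaks found over members and libraries, 65 (41.1%) were strict, against 80.4% of the 100801 TSS peaks of all protein-coding genes. This share was 91.2% for the 34 peaks of the C-type genes and Pcdhb1, and by group 46.9% for Pcdha, 19.4% for Pcdhb, and 47.9% for Pcdhg. The median fold enrichment over the local background was 3.21, with a range of 1.79 to 18.3. In beta 1, which had the most open members, the median -log10 p of the member peaks was 2.26.

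Where the peak sat is a description, and a difference between the groups was not tested. The medians pool 49 peaks in Pcdha, 36 in Pcdhb, and 73 in Pcdhg, with a gene counted in each library where it was open. The quartiles overlapped, at 6 to 570 bp in Pcdha, -47.5 to 368 bp in Pcdhb, and -49 to 122 bp in Pcdhg. The median summit lay 269 bp past the start in Pcdha, 25.5 bp past it in Pcdhb, and at -11 bp, before the start, in Pcdhg, and no peak was counted for 2 members. The relation of openness to position is a description over genes that share libraries. The number of open libraries rose with position toward the C-type end in Pcdha (Spearman's rho 0.687 over 14 genes), fell with distance from Pcdhb1 in Pcdhb (rho -0.534 over 22 genes), and followed position little in Pcdhg (rho 0.151 over 21 genes).

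With all peaks, no difference between cell types in the number of open members passed the test. The mean was 20 ± 2.83 (SD, n = 2) in alpha, 22 ± 13.0 (SD, n = 3) in beta, and 26 ± 9.90 (SD, n = 2) in delta (exact permutation test over 210 assignments of the libraries, p = 0.867). The beta replicates alone covered the whole range, from 9 to 35. Pcdha (exact p = 0.886), Pcdhb (exact p = 0.981), and Pcdhg (exact p = 0.648) passed no test either, with an adjusted exact p of 0.981 for each.

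Delta cells had the most open members when only strict peaks were counted. There were 11 and 8 open members in alpha 1 and 2, against a background of 58.4% and 60.6% of all genes. Beta 1, 2, and 3 had 5, 3, and 7, against 41.8%, 43.3%, and 52.2%, and delta 1 and 2 had 17 and 14, against 57.8% and 55.3%. The cell types did not overlap, with means of 9.5 ± 2.12 in alpha (SD, n = 2), 5.0 ± 2.0 in beta (SD, n = 3), and 15.5 ± 2.12 in delta (SD, n = 2), and they differed (exact permutation p = 0.0190). Without delta 1 this call was lost (exact permutation p = 0.0667, where 0.0167 was possible), with delta 2 at 14 still above alpha and beta.

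**Figure D4:**
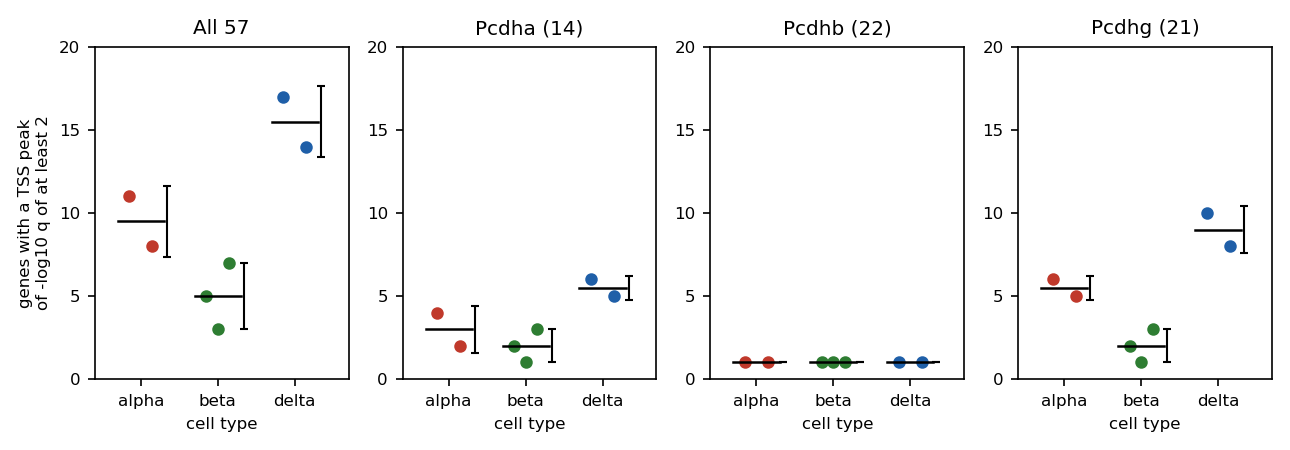
Number of genes with a strict TSS peak, of -log10 q of 2 or more (vertical axis), in alpha, beta, and delta libraries (points) for all 57 members and for each gene group, with the mean (line) and the SD (bar beside it). Delta libraries hold 17 and 14 open members, above all others, and every library holds 1 open Pcdhb gene.

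This count is 1 of 9 settings of the threshold, the window, and the definition of a start, and it is the only one of them under 0.05 for all members. The background moved too, and it was lowest in beta. Divided by the share of all genes in the same library, the member share was 0.330 and 0.232 in alpha, 0.210, 0.121, and 0.235 in beta, and 0.516 and 0.444 in delta (exact permutation p = 0.0286), so the delta libraries stayed above all others while alpha 2 fell within the beta range. With 75860 peaks taken from every list there were 18 and 15 open members in alpha, 16, 7, and 14 in beta, and 24 and 19 in delta (exact permutation p = 0.105), with delta again above the others. Among the 12 nonclustered protocadherins the strict counts were 9.5 ± 0.707 in alpha (SD, n = 2), 7.33 ± 0.577 in beta (SD, n = 3), and 9.5 ± 0.707 in delta (SD, n = 2), so that alpha and delta had the same mean there.

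Pcdhg made most of this difference. Counting strict peaks, 6 and 5 Pcdhg genes were open in alpha, 2, 1, and 3 in beta, and 10 and 8 in delta (exact permutation p = 0.00952, adjusted exact p = 0.0286 over the 3 groups). The adjustment does not cover the 9 settings, of which 2 gave Pcdhg an exact permutation p of at most 0.05. Pcdha gave 4 and 2 in alpha, 2, 1, and 3 in beta, and 6 and 5 in delta (exact permutation p = 0.0762), and Pcdhb gave Pcdhb1 alone in each library. For the 51 members other than the C-type genes and Pcdhb1, the counts were 6 and 3 in alpha, 1, 0, and 2 in beta, and 12 and 10 in delta (exact permutation p = 0.00952, the smallest possible). This last set was chosen after the values were seen. The genes it leaves out varied little, with 3 to 5 open per library, so its p is no separate support for the count of all members.

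Cell type and sequencing lane, as carried by the deposited names, overlapped. Both alpha libraries and beta 1 were of lane 6, and the other 4 of lane 7. Within lane 7 the beta libraries had 3 and 7 open members and the delta libraries 17 and 14 (exact permutation p = 0.333, the smallest that 2 against 2 allow). Alpha and delta shared no lane, so those cell types and lanes cannot be told apart. The part of depth, of lane, and of other cell types in the delta count was not tested.

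Replicates of a cell type did not share open members more than other libraries did when all peaks were used. The Jaccard index, the number of shared open members over the number open in either library, averaged 0.351 over 5 pairs within cell types and 0.378 over 16 pairs between them (exact one-sided permutation p = 0.705). Alpha 1 and 2 shared 12 open members, which were 54.5% of the first and 66.7% of the second. Delta 1 and 2 shared 15, or 45.5% and 78.9%. For strict peaks the index was 0.455 within and 0.357 between cell types (exact one-sided permutation p = 0.0286), while without the C-type genes and Pcdhb1 it was 0.118 and 0.0868 (exact one-sided permutation p = 0.229). These 3 tests were added after the data were seen, as were 3 more, which gave an exact one-sided permutation p of 0.429 to 0.8. The index cannot exceed the size of the smaller set over that of the larger, and strict counts differed between cell types. All 3 strict members of beta 2 were among the 17 of delta 1, yet that index was 0.176. The strict p thus cannot tell shared members from similar counts.

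Pcdha8, an alternate gene near the middle of the Pcdha array, was open in every beta and delta library and closed in alpha. Its peaks were strict in both delta libraries, but among the beta libraries in beta 3 alone. It starts at chr18:36992371, and it had no peak in alpha 1 or 2, a -log10 p of 3.70, 3.07, and 8.90 in beta 1, 2, and 3, and of 11.3 and 13.8 in delta 1 and 2. Each beta and delta library thus had a peak and neither alpha library had one, a pattern found in 0.0638% of all genes. It was the only member open in all 3 beta libraries and closed in alpha (against 0.328% of all genes), and no member was open in all 3 and closed in delta (against 0.387%). The peaks of beta 2, beta 3, and both delta libraries had summits 524 to 600 bp past the start, whereas that of beta 1 lay at -131 bp, before it. The rank score of Pcdha8 gave an exact permutation p of 0.114.

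A further 3 members were open in every replicate of a cell type and closed in a second type. Pcdha12 had a -log10 p of 4.24 and 8.69 in the delta libraries and 2.69 in beta 3, and no peak in alpha or in the other beta libraries. Pcdhgb1 had 3.13 and 3.01 in delta, 2.26 in beta 1, and no peak elsewhere. In all, 3 members were open in both delta libraries and in no alpha library (5.26%, against 0.593% of all genes), namely Pcdha8, Pcdha12, and Pcdhgb1. Pcdha2 was the reverse case, with 3.4 and 3.26 in alpha, 2.18 in beta 1, and no peak in delta (1 member, against 1.35% of all genes). The peaks of Pcdhgb1 and Pcdha2 were strict in no library.

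Over all 6 ordered pairs of cell types, 9 members (15.8%) were open in 2 or more replicates of a cell type and closed in every replicate of a second type, against 6.72% of all genes. Beta against alpha gave 6 of these, namely Pcdha5, Pcdha8, Pcdhb7, Pcdhb13, Pcdhgb5, and Pcdhga11, against 3.31% of all genes. Beta against delta gave 3, against 3.53%, and no member was open in alpha or delta and closed in all 3 beta libraries (against 0.93% and 0.561%). No member was open in all alpha and delta libraries and closed in beta (against 0.319%). Beta 1, with its long list, had a peak in each of the 6 cases of beta against alpha. With lists of equal length there were 4 such members, against 5.5% of all genes, and these were Pcdha2, Pcdha8, Pcdha12, and Pcdhgb7.

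Counting strict peaks, 8 members were selective in this sense, against 6.54% of all genes, and the pairs ran the other way. Both delta and no beta library had such a peak in 5 members (8.77%, against 3.07% of all genes), and they were the Pcdha11 gene ENSMUSG00000102206.5, Pcdhga2, Pcdhga7, Pcdhgb6, and Pcdhgb7. Pcdha7 and Pcdha8 were open in both delta libraries and in no alpha library, against 0.483%, and no member the other way round, against 1.49%. Pcdhga5 was open in both alpha libraries and in no beta library, against 4.33%. No member had a strict peak in 2 or more beta libraries and none in alpha or in delta, against 0.351% and 0.36%.

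By rank score, 6 members (10.5%) were higher in both delta libraries than in every other library, against 4.74% of all genes. These were ENSMUSG00000102206.5 (Pcdha11), Pcdha12, Pcdhga2, Pcdhga7, Pcdhgb6, and Pcdhgb7. Another 2 members, Pcdha2 and Pcdhga5, were higher in both alpha libraries (3.51%, against 8.33%), and no member was higher in all beta libraries (against 1.96%). In alpha 1 and 2 the score was 61.85 and 58.49 for Pcdhga5, but only 4.07 and 8.94, near the floor, for Pcdha2. Pcdhgb7 was also the only member whose 3 beta values were all below the rest, against 8.04%. No member was below the rest in both alpha libraries (against 2.88%) or in both delta libraries (against 1.62%).

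Pcdhgb7 was the only member with an unadjusted exact p of at most 0.05, against 5.46% of all genes. Its rank score was 41.3 and 8.92 in alpha, 0 in all 3 beta libraries, and 51.8 and 76.6 in delta (exact permutation p = 0.0381, adjusted p = 0.791 over all genes). Weak peaks outside the ranked ones were present in beta 1 and beta 3, with a -log10 p of 2.26 and 3.37. No member, and none of the 21938 genes, passed after adjustment (lowest adjusted p = 0.678, exact permutation test with Benjamini-Hochberg adjustment), and 1198 genes had an unadjusted exact p of at most 0.05. In this test a gene at the same value in both delta libraries and at 0 in the other 5 reaches an exact permutation p of 0.0952.

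Several regions between the promoters were open as well. Across the cluster and 50 kb on either side, peaks fell at 6.23 and 5.54 per 100 kb in alpha, 19.9, 2.97, and 6.62 in beta, and 8.01 and 3.76 in delta (exact permutation p = 0.914). Relative to the rest of chromosome 18 this was 1.14 and 1.26 times in alpha, 1.12, 0.893, and 1.59 times in beta, and 1.34 and 1.30 times in delta. Merged across libraries, the peaks formed 333 regions, of which 259 were present in 1 library, with 148 of them in beta 1. Of the 74 regions present in at least 2 libraries, 34 lay at a member promoter and 8 (10.8%) were present in all 7 libraries, against 13.3% of such regions genome-wide.

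**Figure D5:**
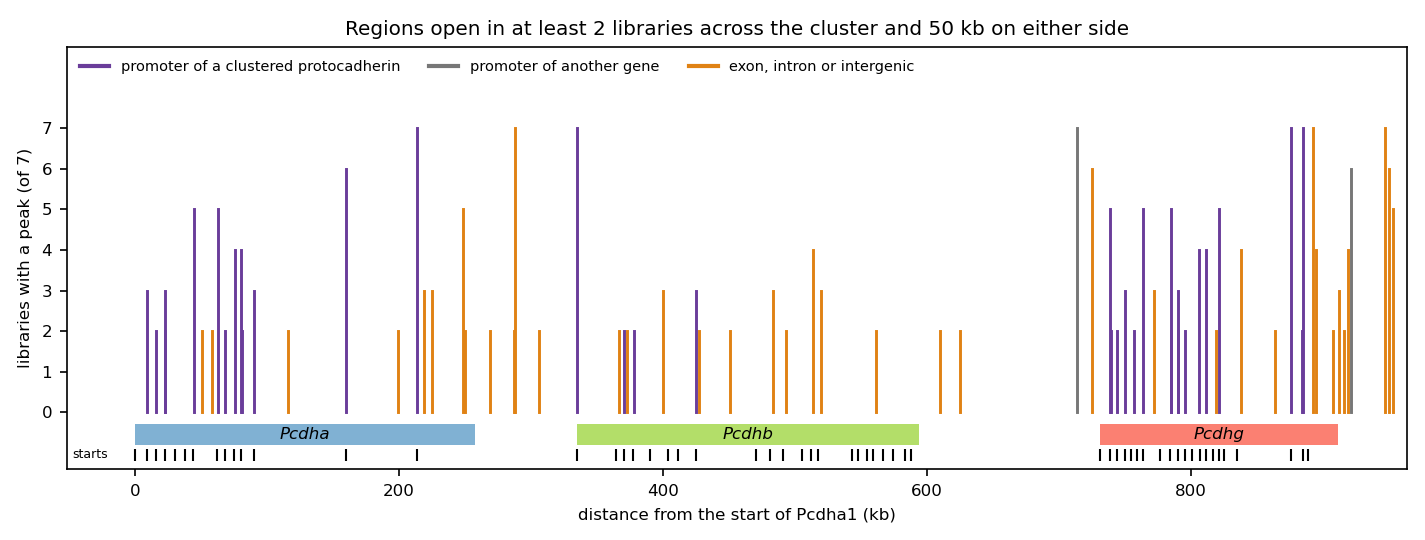
Regions open in at least 2 libraries (vertical lines, height is the number of libraries of 7) by distance from the start of Pcdha1 in kb (horizontal axis), colored by annotation, with the spans of the 3 gene groups (bars) and the gene starts (ticks) below. Lines that reach 7 stand at Pcdhac2, between Pcdha and Pcdhb, at Pcdhb1, before the start of Pcdhg, and around its end, and few reach above 3 within Pcdhb.

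Of these 8 regions 4 were the promoters of Pcdhac2, Pcdhb1, Pcdhgc3, and Pcdhgc4, and another was the exonic region of Pcdhgc5 given above. A region between Pcdha and Pcdhb (chr18:37217719-37218575) lay in the intergenic stretch past the last Pcdha exon, where a distant enhancer of Pcdha is known to lie. Its -log10 p ran from 9.01 to 41.2 over the 7 libraries, and it was not matched to that enhancer by coordinates. The region chr18:37643860-37644431 held the promoter of another protein-coding gene between Pcdhb and Pcdhg, and chr18:37877145-37877719 lay in Diaph1, the gene past the end of Pcdhg, with a -log10 p of 5.77 to 22.02. A further region of Diaph1 (chr18:37880071-37880538) was present in 6 libraries with 5.68 to 24.9, as was chr18:37655484-37656084, which lay 5709 bp before the first Pcdhg gene.

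The exonic region chr18:37768133-37768810, 2360 bp past the start of Pcdhga12, was present in both alpha and both delta libraries and in no beta library. Its -log10 p was 6.36 and 14.9 in alpha and 7.55 and 5.45 in delta, and all 4 peaks were strict. It is 1 of the 74 regions of the cluster and its flanks that were present in at least 2 libraries. Of such regions across the genome, 1.43% had this pattern, so 1 region does not set the cluster apart. The promoter of Pcdhga12 itself was open in delta 1 alone.

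The promoters differed from others in base composition, which the choice by symbol did not use. In the 300 bp from 250 bp before to 50 bp after the gene start, the median GC content was 39.7% in members and 55% in all protein-coding genes, and the median number of CpG dinucleotides was 6 and 11. Relative to the number expected from the C and G content, CpG was alike, with a median ratio of 0.5208 in members and 0.5245 in all genes. The C-type genes and Pcdhb1 had a median GC content of 53.5%, and Pcdhgc3, the most open member, had the highest at 62.0%. Pcdhgc5, open nowhere, had 54.7%. The letters CGCT, on either strand, were present in 55 members (96.5%), against 67.1% of all genes. The longer GGCGCT, which contains CGCT, was present in 25 members (43.9%), against 18.5%, and in 18 of 22 Pcdhb genes (81.8%), the group with the fewest open promoters. A match of these letters is a description and not a binding site.

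Members resemble each other in sequence. Around each start, 50 bp windows, the length of a read, that occur more than once in the cluster made up a median of 0.564% of windows per member. The highest share was 17.9%, at Pcdha7, followed by 17.1% at Pcdha6 and 13.1% at Pcdha8. Pcdha7 and Pcdha8 were the members with a strict peak in both delta libraries and in no alpha library. Pcdha6, between them in share, was open in 1 library and had no strict peak. In 26 members there were no repeated windows. By group the median was 8.12% in Pcdha and 0 in Pcdhb and Pcdhg. Only repeats within the cluster were counted. What repeated sequence did to the peak calls was not tested.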

How the data were processed

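Single-end reads of 50 bp were processed by the authors with Trimmomatic, Bowtie 2 (GRCm38, mm10, mitochondrial DNA left out), and Picard for duplicates. Blacklisted regions were dropped, and MACS2 was run on each library. Tool versions and the MACS2 threshold are not given in the sources used here. The lowest -log10 p was 2.01 in every list. The deposited -log10 p and -log10 q values and the fold enrichment, a ratio over local background, come from the authors' MACS2 calls, as does the deposited score, which was not used.

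Rows that repeat an interval were counted once. Transcript starts came from GENCODE vM21 (GRCm38), and a TSS peak overlaps the 1 kb on either side of a start by at least 1 bp. The rank score is 100 times 1 minus the share of stronger peaks among the 75860 peaks of lowest p of a list, with ties ordered by fold enrichment and then position. Sequence was read from the GRCm38 genome of RefSeq, and no sequence is printed.

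Cell types were compared by exact permutation tests over all 210 ways to split the 7 libraries into 2, 3, and 2 (smallest p 0.00952), and members with all genes by an exact sign-flip test over libraries. p-values were adjusted by Benjamini-Hochberg. Peak lists hold no read counts, so the authors' test of counts was not repeated, no detection limit could be computed for an absent peak, and precision is limited by read depth, which the lists do not hold. Named genes were the C-type genes, members open in all libraries, members open in every replicate of a cell type and closed in a second type, the 5 of highest median rank score, up to 10 open in the fewest libraries, and those at an unadjusted exact p of at most 0.05. Other members named in counts were chosen after their values were seen. The members and lists were chosen with earlier results of these data known. Alternative settings were strict peaks (-log10 q of 2 or more), 50000 peaks or equal numbers per list, windows of 500 bp and 3 kb, other definitions of a start, summits, leaving out each library, and a replicate block.

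Deviations of same-numbered libraries correlated at -0.0302 to 0.0365, so replicate numbers gave no sign of pairing. This check cannot show that the libraries are independent, since other pairings were not examined. The paper states that the cell types compared were taken from the same animals, so beta libraries may share mice with alpha or delta libraries. Which libraries share mice is not given, and the exact permutation tests of cell types, apart from the replicate block, treated libraries as unpaired. Scripts ran in Python 3.11.15 (pandas 2.3.3, numpy 2.4.6, matplotlib 3.10.9, scipy 1.17.1). On simulated lists of 2000 genes, 100% of the calls made were found, as were 200 of 200 genes made strongest in delta and weakest in beta. The simulated cell types were set far apart with little spread, so this checked the code and not the sensitivity for these libraries.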

Additional observations from a re-analysis of the deposited data

How the results depend on the processing

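The lower openness of members than of all genes kept its direction under the 9 alternatives and with each library left out (-28.6 to -23.9 percentage points). Under the other settings it was -37.9 to -20.4. The difference between cell types depended on the threshold. The exact permutation p for the number of open members was 0.867 with all peaks and 0.0190 with strict peaks (-log10 q of 2 or more), and with each library left out it was 0.467 to 0.967 for all peaks. For strict peaks it became 0.0667 without delta 1, where 0.0167 was possible, so that the call rests on delta 1. It was 0.0667 without any 1 of beta 1, beta 2, or beta 3 as well, the smallest value that those 6 libraries allow, and 0.0333 without alpha 1, alpha 2, or delta 2. For Pcdhg it was 0.00952 for strict peaks and 0.0286 with 50000 peaks per list. These were the only 2 of 9 settings at most 0.05 for Pcdhg, and the highest exact permutation p among the 9 was 0.819. Of the added values, the exact permutation p of the member share divided by the background was 0.0286 for strict peaks, against 0.695 with all peaks, and that of the members other than the C-type genes and Pcdhb1 was 0.00952, against 0.829. The added strict values use the same peaks as the count of all members and are no separate support for it.

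The 9 members open in 2 or more replicates of a cell type and closed in a second type became 4 with 50000 peaks per list, 4 with lists of equal length, and 4 with a window of 500 bp, and 6 to 13 with each library left out. Fewer peaks or a narrower window enter these counts by construction. The 1 member at an unadjusted exact p of at most 0.05 was lost without delta 2. It was lost by design without any beta library, where no gene can go below 0.0667, and the range was 0 to 1.

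Permuting within the replicate numbers (replicate block) gave an exact permutation p of 0.833 for the number of open members with all peaks. With 36 assignments it cannot go below 0.167, so it bears on no call, and it was not run for strict peaks. No paired analysis was possible for the member share against all genes, which compares genes within a library, or for the counts of members without a test. Read depth, which the lists do not hold, limits every statement on a closed promoter, and beta 1 most.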
